A study of Mus musculus with 4 samples.

Results

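The genes described here are 31 neighbours on mouse chromosome 10, from Ppm1h to Shmt2, with the cell cycle kinase gene Cdk4 among them. They were chosen by measured values: this stretch of the chromosome was lowest in 1 of the 4 cell lines of the series, the control line vector 2. Every comparison of vector 2 with the other lines below is therefore a description and carries no test. The array gave 65 probe sets to these genes, out of 34945 that its annotation pairs with a single gene. A probe set is a group of short probes read together as 1 signal, and each of the 31 genes had at least 1. Of the 65 probe sets, 49 passed a filter on dim signals, and they covered 25 of the 31 genes, out of 10682 genes tested in all. Agap2, B4galnt1, Slc26a10, Gli1, Inhbe and Stac3 were measured only by dim probe sets. By the gene order of the assembly GRCm38.p6, no tested gene other than these 25 lies between Ppm1h and Shmt2.

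The 4 lines derive from LMTK- cells, mouse fibroblasts that lack thymidine kinase, stably transfected by means of Lipofectin. All 4 carry the plasmid pCI-neo, whose viral promoter drives any insert. Vector 1 and vector 2 carry it empty, and the clones MTf 4 and MTf 6 carry it with mouse melanotransferrin cDNA, so each clone is a single line. Whether vector 1 and vector 2 are separate clones is not stated in the labels. Total RNA of each line was hybridised to 1 Mouse Genome 430 2.0 array, and every signal below is the linear intensity of a probe set on a scaled array. The question of the series was which transcripts differ with excess melanotransferrin, a membrane-anchored iron-binding protein of the transferrin family.

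Cdk4 encodes a kinase that binds D-type cyclins and phosphorylates the retinoblastoma protein, which frees E2F factors to start DNA replication. Its neighbours on this chromosome have varied functions: besides growth signalling they serve protein synthesis, the mitochondrion, the endoplasmic reticulum, transport along microtubules and vitamin D metabolism. In human tumours the matching stretch, on chromosome 12, is known for gains that raise CDK4 and its neighbours together.

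Median signals lay between 208.7 and 214.4, and the signal at the 3' end of Actb over that at its 5' end, a measure of RNA integrity, was 1.22 in vector 2 and 1.21 to 1.31 in the other lines. Meltf, the gene of the transgene, had signals of 265 for vector 1, 274 for vector 2, 1519 for MTf 4 and 1885 for MTf 6. Of 12 fibroblast markers, 9 were tested, and Vim, the mesenchymal filament vimentin, was at 74441 to 94073 in the 4 lines. Other fibroblast markers were less even, with Col1a1 at 695 to 2487 and Pdgfra at 671 to 2464. The 12 markers summed to 207640 to 280411, with 233768 in vector 2, and 0 of the tested ones were lowest or highest in vector 2. The macrophage markers summed to 1252 to 2212, with 1516 in vector 2. Of the 4 tested, 1 was lowest in vector 2 and 2 (Cd68 and Adgre1) were highest. The lowest was Lyz2, itself on chromosome 10, at 275 beside 466 to 767. Vector 2 had the lowest summed signal of the epithelial markers (637 beside 808 to 1120.1), the endothelial (552 beside 562 to 655) and the adipocyte ones (26518 beside 27368 to 32790.2). It had the highest of the muscle (1637 beside 1260 to 1516) and melanocyte markers (1172 beside 760 to 1010). These sums include markers below the filter. Among tested markers, 0 of the epithelial (1 tested), endothelial (1 tested) and adipocyte ones (2 tested) were lowest in vector 2. Of the 2 tested muscle markers 0 were highest in vector 2, while the 1 tested melanocyte marker, Mitf, was. The part of these markers in the results below was not tested.

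Vector 2 had the lowest signal of the 4 lines in 20 of the 25 tested genes. The difference was at least 1.5-fold in 16 genes and at least 2-fold in 11. Differences here are of log2(signal + 32), vector 2 minus the mean of the other 3 lines, and each gene is represented by its brightest probe set. Over all 10682 tested genes, 19.7% were lowest in vector 2, 3.52% were at least 1.5-fold lower and 0.983% at least 2-fold lower. Because the genes were chosen on this comparison, nothing is read from these shares. The median difference over the 25 genes was -0.93, where it was 0.03 over all tested genes and -0.32 over the 487 other tested genes of chromosome 10. In bulk RNA such as this, fewer cells with the transcript and less transcript per cell cannot be told apart.

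The low stretch did not begin at Ppm1h. The genes from Ppm1h to Lrig3, 4 in all, had a median of -0.36, close to the -0.34 of the 427 genes between Stxbp5 and Ppm1h. From Atp23 to Shmt2 the median of 21 genes was -1.01, which is 2.02-fold lower. Past Shmt2 the next 6 tested genes, Nxph4 to Zbtb39, had a median of -0.92. The 31 genes after those, to the end of the chromosome, had a median of -0.02, and none of them was 1.5-fold lower. At the opposite end, the first 23 tested genes, through Stxbp5, had a median of 0.46, with differences from -0.04 to 1.28, and none was lowest in vector 2. By these medians vector 2 thus showed 4 levels along chromosome 10, and the lowest held most of the genes described here. Single genes varied widely within a level. The 427 genes reached from -2.94 to 1.33, with 12 at least 2-fold lower, and the 21 from Atp23 to Shmt2 from -1.75 to 0.63. The largest drop on chromosome 10 thus lay outside the genes described here. The borders of the levels were drawn after the values were seen. On the other 19 chromosomes with tested genes the medians of vector 2 lay between -0.08 and 0.08.

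**Figure D1:**
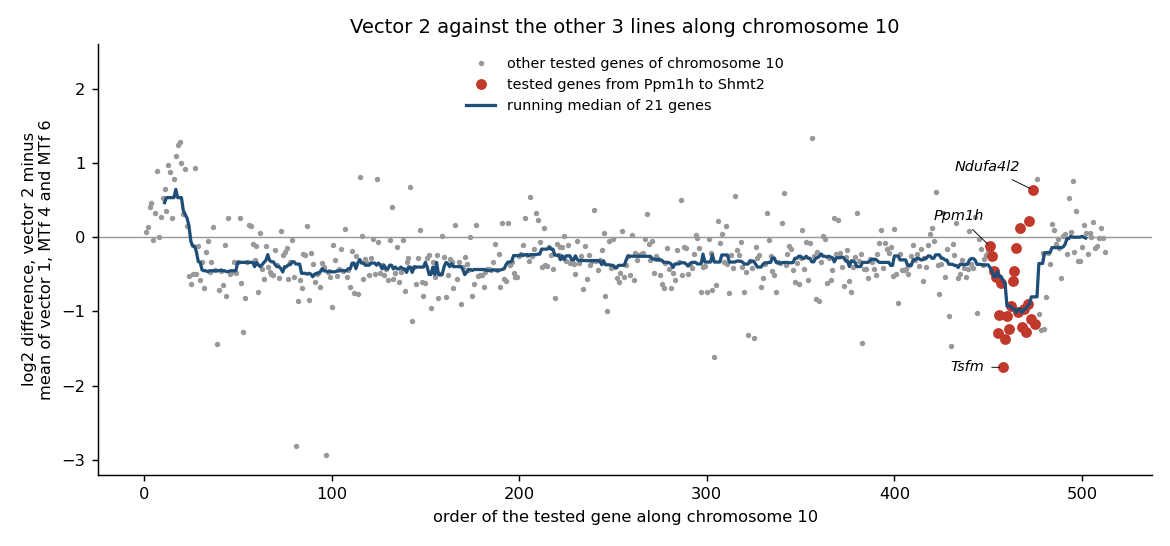
Each point is a tested gene of chromosome 10 in gene order (x axis), and the y axis is the log2 difference of vector 2 from the mean of vector 1, MTf 4 and MTf 6; the line is a running median of 21 genes. The line starts near 0.46 and lies near -0.34 for most of the chromosome. It drops to about -1.01 among the red points (the 25 tested genes from Ppm1h to Shmt2) and returns to about 0 at the end. The first 4 red points, Ppm1h to Lrig3, lie before the drop, with a median of -0.36.

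Cdk4 itself was bright and lower in vector 2 by all of its probe sets. By the brightest, signals were 24162 for vector 1, 10015 for vector 2, 22287 for MTf 4 and 24546 for MTf 6. Vector 2 was at 42.3% of the mean of the other lines, a log2 difference of -1.24. The other 3 lines lay within 0.14 of each other on the log2 scale, so the gap below them was several times their range. The other probe sets gave 18253, 7306, 16338 and 17300, and 17974, 7369, 15398 and 17230, in the order vector 1, vector 2, MTf 4 and MTf 6. They put vector 2 at 42.2% and 43.7% of the mean, so 3 probe sets gave nearly the same value.

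The promoters of 4 genes are shown as examples of large and small drops: Cdk4, for which the stretch is named, Tsfm, with the largest drop, Ddit3, bright and 2.42-fold lower, and Ppm1h, the first gene, whose brightest probe set was not lowest in vector 2. Each sequence is RefSeq's, from GRCm38.p6, and runs from 250 bases before to 50 after the gene's start. They lie at chr10:127063285-127063584 (plus strand) for Cdk4, chr10:127030765-127031064 (minus strand) for Tsfm, chr10:127290543-127290842 (plus strand) for Ddit3 and chr10:122678512-122678811 (plus strand) for Ppm1h. Capitals mark matches on either strand to the TATA box TATAAA, the pentamer CCAAT, the GC box GGGCGG or the E-box CACGTG, with overlapping matches counted separately.
Cdk4 promoter: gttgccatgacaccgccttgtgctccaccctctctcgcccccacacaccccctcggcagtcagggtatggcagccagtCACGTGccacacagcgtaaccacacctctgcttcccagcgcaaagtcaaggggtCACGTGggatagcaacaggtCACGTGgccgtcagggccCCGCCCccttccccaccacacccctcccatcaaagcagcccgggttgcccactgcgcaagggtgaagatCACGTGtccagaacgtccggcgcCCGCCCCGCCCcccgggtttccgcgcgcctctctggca
Tsfm promoter: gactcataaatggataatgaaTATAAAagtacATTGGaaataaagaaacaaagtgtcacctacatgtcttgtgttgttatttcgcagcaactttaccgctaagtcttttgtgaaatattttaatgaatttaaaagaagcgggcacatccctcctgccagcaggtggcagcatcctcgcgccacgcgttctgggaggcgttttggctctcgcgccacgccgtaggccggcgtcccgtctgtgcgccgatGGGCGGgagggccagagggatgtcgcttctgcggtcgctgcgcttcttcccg
Ddit3 promoter: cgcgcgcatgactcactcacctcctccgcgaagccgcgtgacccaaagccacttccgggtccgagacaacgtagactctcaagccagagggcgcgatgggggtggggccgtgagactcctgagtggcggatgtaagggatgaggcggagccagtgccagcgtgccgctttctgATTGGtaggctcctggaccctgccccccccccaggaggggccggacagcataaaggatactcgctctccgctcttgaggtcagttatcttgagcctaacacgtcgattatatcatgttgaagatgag
Ppm1h promoter: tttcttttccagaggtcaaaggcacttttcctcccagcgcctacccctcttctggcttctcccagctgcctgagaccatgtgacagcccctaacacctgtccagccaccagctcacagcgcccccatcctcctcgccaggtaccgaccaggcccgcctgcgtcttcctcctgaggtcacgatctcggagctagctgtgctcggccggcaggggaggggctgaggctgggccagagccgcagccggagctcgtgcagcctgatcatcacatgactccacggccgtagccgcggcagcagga

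The Cdk4 window held 4 matches to CACGTG and 3 to GGGCGG. The E-box CACGTG, the motif of Myc and related factors, occurs in 7.15% of the 32851 promoter windows of that length, GGGCGG in 35.7%, CCAAT in 37.4% and TATAAA in 13.6%. Tsfm held 1 TATA box, 1 match to CCAAT and 1 GC box, Ddit3 held 1 to CCAAT, and Ppm1h held none of the 4 motifs in this window. Among 25 promoter windows that matched 22 of the genes, 3 held CACGTG (those of Lrig3, Mettl1 and Cdk4), 12 held GGGCGG, 14 held CCAAT and 3 held TATAAA. The windows of the genes low in vector 2 thus did not share any 1 of these motifs. A match is only a match of letters.

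Among the other genes of growth signalling, Ctdsp2 was low and the rest less so or not at all. Ctdsp2 encodes a small phosphatase that acts on RNA polymerase II and on SMAD proteins. Its signals were 21918 for vector 1, 11949 for vector 2, 34133 for MTf 4 and 20327 for MTf 6, so vector 2 was 2.07-fold lower and MTf 4 stood above the others. Both other probe sets of Ctdsp2 were lowest in vector 2 too, by 1.73-fold and 2.37-fold. Usp15, a deubiquitinase, had 4950 for vector 1, 3132 for vector 2, 3536 for MTf 4 and 4618 for MTf 6 by its brightest probe set. Here MTf 4 came close to vector 2. The 4 tested probe sets of Usp15 disagreed, with differences from -0.98 to -0.03.

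Lrig3, a membrane protein with leucine-rich repeats that modulates growth factor receptors, was at 805 for vector 1, 694 for vector 2, 1390.3 for MTf 4 and 939 for MTf 6. By this probe set MTf 4 was high, and vector 1 lay only 0.21 (log2) above vector 2. By its second tested probe set Lrig3 was at 1029, 661, 1012 and 809 in vector 1, vector 2, MTf 4 and MTf 6, and MTf 4 did not stand out. The differences of vector 2 by these probe sets were -0.53 and -0.50. Ppm1h, a protein phosphatase, was at 2990.1, 3073, 4111 and 3064 in vector 1, vector 2, MTf 4 and MTf 6 by its brightest probe set, so vector 2 was within the range of the others. Its second tested probe set gave 602, 562, 803 and 896 in that order, lowest in vector 2 by 0.41 (log2). Dtx3, a ubiquitin ligase of the Deltex family, had vector 2 within the range of the other lines, at 1331 for vector 1, 1298 for vector 2, 1814 for MTf 4 and 1230.5 for MTf 6. Dtx3 is the exception among these, as it lies inside the low stretch. Gli1, the transcription factor that ends the hedgehog pathway, was dim, at 173, 211, 181 and 113 in that order. Inhbe, a subunit of activin, was dim as well, at 27.3 to 169.

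The genes of protein synthesis, mitochondria and one-carbon metabolism held the largest drop. Of the 6 tested genes, 5 were lowest in vector 2, and all 5 were at least 1.5-fold lower. Tsfm, the mitochondrial elongation factor Ts, was at 6095 for vector 1, 1634 for vector 2, 4756 for MTf 4 and 6014 for MTf 6. Vector 2 was at 29.1% of the mean of the others, or 3.37-fold lower, the largest drop among the 25 tested genes. Mettl1, which methylates guanosine in transfer RNAs, lies next to Tsfm among the tested genes. Its signals were 2360.4, 945, 2286 and 2890 in vector 1, vector 2, MTf 4 and MTf 6, so vector 2 was 2.59-fold lower. Its other probe sets gave 3.09-fold and 2.05-fold.

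Shmt2 makes glycine and one-carbon units from serine in mitochondria. By its brightest probe set it was at 20644 for vector 1, 7770 for vector 2, 12888 for MTf 4 and 20469 for MTf 6. Vector 2 was lowest, and MTf 4 lay between it and the other lines. The 4 probe sets of Shmt2 were lower in vector 2 by 1.67-fold to 2.45-fold. Atp23, a metalloprotease of the mitochondrial intermembrane space, was at 4124, 1483, 3437 and 3544 in vector 1, vector 2, MTf 4 and MTf 6, or 2.46-fold lower in vector 2. It is the first gene of the low stretch. Mars1, the cytosolic methionyl-tRNA synthetase, was at 18429 for vector 1, 9078 for vector 2, 15253 for MTf 4 and 17436 for MTf 6, and vector 2 was 1.87-fold lower.

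Ndufa4l2 went the other way. This mitochondrial protein, known as a target of hypoxia-inducible factor, was at 186 for vector 1, 608 for vector 2, 686 for MTf 4 and 417 for MTf 6. Vector 1 was the low line here, by 1.38 (log2) against the mean of the clones, and vector 2 lay among the others. The lines without vector 2 spread over 1.72 on the log2 scale, the widest range of the 25 tested genes.

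Both genes of the endoplasmic reticulum and its stress response were lowest in vector 2. Ddit3 encodes CHOP, the transcription factor induced by unfolded proteins and amino acid shortage. Its signals were 15774 for vector 1, 6749 for vector 2, 16851 for MTf 4 and 16577 for MTf 6, a 2.42-fold drop beside a range of 0.10 (log2) among the others, the narrowest of the 25 genes. The second, dimmer probe set of Ddit3 gave 1089, 746, 1539.5 and 938 in that order, a 1.54-fold drop. Os9, a lectin that hands misfolded glycoproteins to degradation, was at 2622 for vector 1, 1940.5 for vector 2, 3653 for MTf 4 and 2687 for MTf 6, or 1.51-fold lower. Its second probe set gave a 2.05-fold drop. For both genes the probe sets thus agreed in direction and differed in size.

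Genes of transport and the cytoskeleton were mixed, with 6 of 8 tested genes lowest in vector 2 and 4 at least 1.5-fold lower. Dctn2, the dynamitin subunit of dynactin, which couples dynein to cargo, was at 9827 for vector 1, 4729 for vector 2, 13462 for MTf 4 and 10011 for MTf 6. Vector 2 was 2.31-fold lower. Pip4k2c, a kinase of phosphatidylinositol phosphates, was at 7098, 3675, 8370 and 6980.5 in vector 1, vector 2, MTf 4 and MTf 6, or 2.02-fold lower in vector 2, and its second probe set gave 1.86-fold. Tspan31, a tetraspanin whose gene runs towards that of Cdk4 on the opposite strand, was at 16829 for vector 1, 8336 for vector 2, 14862 for MTf 4 and 16049 for MTf 6. Its drop of 1.90-fold was smaller than that of Cdk4, and its second tested probe set gave 1.47-fold.

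Avil, the actin-binding protein advillin, was at 26405 for vector 1, 19571 for vector 2, 33898 for MTf 4 and 30538 for MTf 6, or 1.54-fold lower in vector 2. Advillin is known chiefly from sensory neurons, yet its probe set was among the bright ones in all 4 lines. Mon2, of endosome to Golgi traffic, lies before the low stretch and was at 3457, 2984, 3767 and 3487 in vector 1, vector 2, MTf 4 and MTf 6. Vector 2 was lowest, by 1.19-fold against the mean. Arhgef25, an exchange factor for RhoA, was at 1448 for vector 1, 1076 for vector 2, 1702 for MTf 4 and 1349 for MTf 6 by its brightest probe set. By another it was at 262, 418, 887 and 470.2 in that order, and vector 1 was the lowest line. The remaining tested probe set gave 999, 903, 2377 and 1230, lowest in vector 2, by 1.56-fold against the mean.

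Arhgap9, a GTPase-activating protein, and Kif5a, the neuronal heavy chain of kinesin-1, did not follow the stretch in which they lie. Arhgap9 was at 1092 for vector 1, 1390.1 for vector 2, 1468 for MTf 4 and 1044 for MTf 6. Its 4 tested probe sets had differences from -0.08 to 0.30. Kif5a was at 287 for vector 1, 309 for vector 2, 201 for MTf 4 and 379 for MTf 6 by its only tested probe set, near the filter's signal of 196. Agap2, a GTPase-activating protein, was dim at 26.7 to 256, and Stac3, of muscle excitation-contraction coupling, at 29.4 to 174.

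The remaining tested genes were low in vector 2. Cyp27b1, which makes active vitamin D, was at 671 for vector 1, 385 for vector 2, 999.7 for MTf 4 and 874 for MTf 6, or 2.09-fold lower in vector 2. Mbd6, a protein with a methyl-CpG-binding domain, was at 1927, 1002, 2252 and 1828 in vector 1, vector 2, MTf 4 and MTf 6, or 1.96-fold lower. R3hdm2, which carries an R3H domain, was at 3814 for vector 1, 2170.4 for vector 2, 6508 for MTf 4 and 4128 for MTf 6, or 2.14-fold lower. In each of these genes vector 2 lay below all 3 other lines. B4galnt1, the enzyme of GM2 ganglioside synthesis, and Slc26a10, of the SLC26 anion transporter family, had dim signals of 6.8 to 85.1 and 14.5 to 25 and give no direction.

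**Figure D2:**
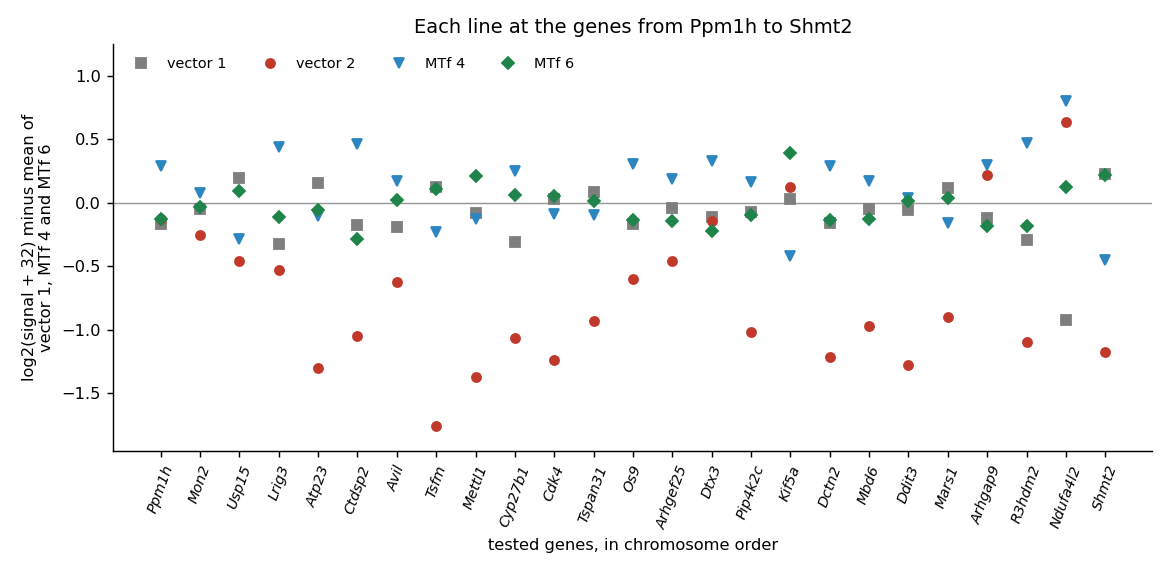
For each of the 25 tested genes in chromosome order (x axis), the 4 symbols give the log2(signal + 32) of each line minus the mean of vector 1, MTf 4 and MTf 6 (y axis), with 1 array per line. Vector 2 lies below the other lines in 20 genes, by the brightest probe set of each, and Ppm1h, Dtx3, Kif5a, Arhgap9 and Ndufa4l2 are the exceptions.

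The drop in vector 2 exceeded the range of the other lines in most genes. In 16 of 25 genes the gap between vector 2 and the lowest of the other 3 lines was larger than the whole range of those 3, where the share over all tested genes was 5.59%. By probe set, 40 of 49 tested ones were lowest in vector 2, where the share was 21.1% over all tested probe sets, and 0 were highest in vector 2. Of the 14 genes with at least 2 tested probe sets, 13 had all of them lower in vector 2 than in the mean of the others, and Arhgap9 was the exception. Probe sets of the same gene differed by a median of 0.41 (log2) in the size of the drop, with Lrig3 (0.04) and Cdk4 (0.05) the most even and Usp15 (0.95) the least. Among the 16 dim probe sets 5 were lowest in vector 2.

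Signal level moved with the drop. The 21 tested genes from Atp23 to Shmt2 were split by the mean log2 value of the other lines, at a signal of 2000. At or above it were 14 genes, all lowest in vector 2, with differences from -1.75 to -0.60 and a median of -1.14. Mbd6 lay just below this limit and counts as dimmer. The 7 dimmer ones reached from -1.06 to 0.63, with a median of -0.14, and 3 were lowest in vector 2. Over the 4231 tested genes of that brightness the median was 0.01. The part of signal level in the exceptions was not tested.

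**Figure D3:**
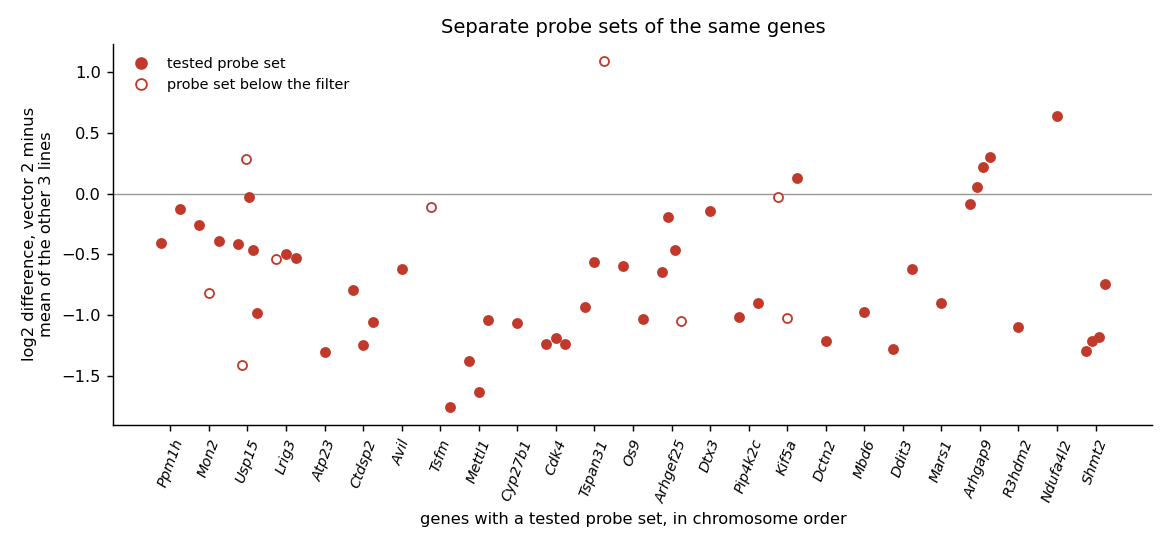
Each point is a probe set of a gene with at least 1 tested probe set, in chromosome order (x axis), with its log2 difference of vector 2 from the mean of the other 3 lines (y axis); open points are below the filter. The 3 points of Cdk4 nearly coincide, the 4 of Usp15 that were tested reach from -0.98 to -0.03, and those of Arhgap9 lie around 0.

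On either side, the genes next to the stretch were as follows. Before Ppm1h, the 5 nearest tested genes (Rassf3, Tbk1, Xpot, BC048403 and Rxylt1) had differences from -0.37 to -0.16. Rxylt1, a glycosyltransferase of dystroglycan, was at 8151 for vector 1, 7654 for vector 2, 9027 for MTf 4 and 9123 for MTf 6. None of these 5 was 1.5-fold lower. After Shmt2, 3 of the 5 nearest were 2-fold lower. Lrp1, the endocytic receptor, was at 5210 for vector 1, 2353 for vector 2, 6874 for MTf 4 and 3215 for MTf 6, and Stat6, which relays interleukin-4, at 6007, 2642, 7257 and 5854 in that order. Nemp1, of the nuclear envelope, had a difference of -1.24, so the low level of Shmt2 continued past it. Nab2 (-0.22) and Nxph4 (0.78) did not share it. Zbtb39, the last of the low run and chosen after a look at its values, had signals of 766 for vector 1, 395 for vector 2, 769 for MTf 4 and 618 for MTf 6.

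Vector 1, MTf 4 and MTf 6 lay close to each other. Their range had a median of 0.45 over the 25 tested genes and of 0.41 over all tested genes. MTf 4 was at the edge of them: it was the highest of the 3 in 16 genes and the lowest in 9. Over all tested genes 42.5% were highest and 34.8% lowest in MTf 4, so the share of genes lowest in it was near the background. With each array centred on its median it was the highest in 14 and the lowest in 9. By the brightest probe set, the 9 genes lowest in MTf 4 were Tsfm, Mettl1, Mars1, Atp23, Shmt2, Cdk4, Tspan31, Usp15 and Kif5a. Other tested probe sets of Mettl1, Tspan31 and Usp15 did not all have MTf 4 lowest. For Mettl1, 1 gave 1142 in vector 1, 1219.5 in MTf 4 and 1047 in MTf 6. Genes highest in MTf 4 by the brightest probe set included Ctdsp2, R3hdm2, Lrig3 and Dctn2. The median of MTf 4 minus the mean of vector 1 and MTf 6 was 0.26 over the 25 genes and 0.05 over all tested genes. Each line has 1 array, so these differences have no replicate check.

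Between the melanotransferrin clones and the vector lines, no probe set of these genes passed the test. The genes were chosen for low values in vector 2, which is 1 of the 2 vector arrays, so this comparison is not independent of the choice, and nothing is read from its counts or intervals. The test was limma's, with Benjamini-Hochberg adjustment over all 22519 tested probe sets, and it called 0 of the 49, where the share over all was 0.00444%. Meltf itself, with a log2 difference of 2.52 (SE 0.24), had an adjusted p of 0.0903 from limma. The gene of the transgene was thus not called at 0.05 either, so the 0 of 49 says little about these genes. At an unadjusted 0.05 there were 5 of 49, of Avil, Cyp27b1, R3hdm2 and Arhgef25 (2 probe sets), where the share over all was 1.90%. The lowest adjusted p among the 49 from limma was 1.00. The Cdk4 signal averaged 17089 ± 10004 (SD, n = 2) over vector 1 and vector 2 and 23416 ± 1598 (SD, n = 2) over MTf 4 and MTf 6, a log2 difference of 0.59 (SE 0.36, 95% interval -0.26 to 1.43). Cyp27b1 had a difference of 0.84 (SE 0.30) and R3hdm2 of 0.84 (SE 0.32). By the brightest probe set, both clones were above both vector lines in 8 genes, where the share over all tested genes was 11.7%. These were Mon2, Lrig3, Avil, Cyp27b1, Os9, Dctn2, Ddit3 and R3hdm2. In Mon2, Lrig3, Os9 and Ddit3 a second tested probe set had at least 1 clone below vector 1. Avil, Cyp27b1, Dctn2 and R3hdm2 had 1 tested probe set each.

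The genes were chosen for low values in vector 2, so large gaps to vector 2 follow from the choice. Nothing is read from these gaps. As a median over the 25 genes, the clones were 0.50 (log2) above the vector lines. Of the 25 genes 24 were higher, where 5231 of all 10682 tested genes were. Against vector 1 alone the median was 0.11, with 17 of 25 higher, and against vector 2 alone it was 0.89. Over all tested genes the clones differed from vector 1 by a median of 0.01. Against vector 1 alone, the mean of the clones differed by -0.05 for Cdk4, -0.19 for Tsfm and -0.35 for Shmt2. In these 3 genes MTf 4 lay below vector 1 and MTf 6 was near it. Cyp27b1 (0.46) and R3hdm2 (0.44) were higher in both clones than in vector 1. Lrig3 was higher by its brightest probe set (0.49), but by its second tested one both clones lay below vector 1. The vector lines differed from each other by a median of 0.87 (absolute log2) over the 25 genes and the clones by 0.34, while over all tested genes these values were 0.24 and 0.29.

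**Figure D4:**
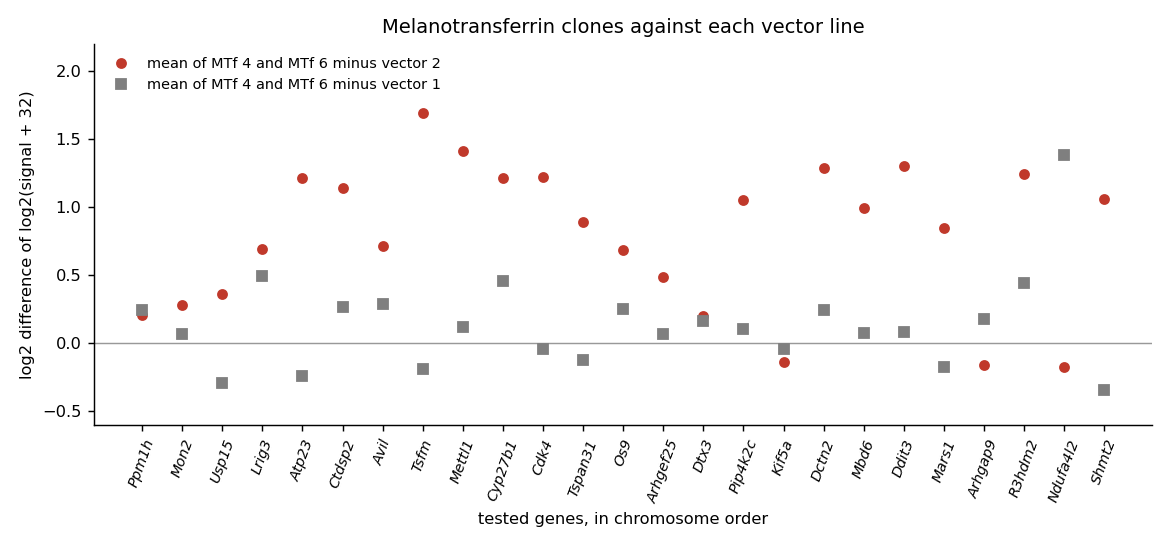
For each of the 25 tested genes in chromosome order (x axis), the y axis gives the mean log2(signal + 32) of MTf 4 and MTf 6 minus that of vector 2 (circles) or vector 1 (squares). The circles have a median of 0.89 and the squares of 0.11, and Ndufa4l2 is high against vector 1.

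In lists of genes that work with these, the median difference of vector 2 was near 0, and 0 of the listed genes passed limma's test between the groups in either direction. Of 20 genes around CDK4 in the G1 phase, 18 were tested, with a median difference of vector 2 from the others of -0.07. Of these, 5 were lowest in vector 2, where the share over all tested genes was 19.7%. E2f1, a factor freed by CDK4 activity, was at 2461 for vector 1, 1613 for vector 2, 1851 for MTf 4 and 2874 for MTf 6. Ccnd2, a cyclin partner of CDK4, was at 5726, 7587, 6138 and 5918 in that order, highest in vector 2.

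For the stress response around Ddit3 and Os9, 14 of 15 genes were tested, with a median of 0.08 and 2 lowest in vector 2. Erlec1, a lectin that acts like Os9, was at 3245 for vector 1, 6076 for vector 2, 5752 for MTf 4 and 3679 for MTf 6, and Xbp1, a transcription factor of the unfolded protein response, had a difference of 0.37. In serine and one-carbon metabolism, 9 genes were tested, with a median of -0.05. Shmt1, the cytosolic counterpart of Shmt2, was at 3846, 2312, 2373 and 3548 in vector 1, vector 2, MTf 4 and MTf 6, low in vector 2 and in MTf 4 alike. Mthfd1l, which also lies on chromosome 10 but near its start, was highest in vector 2, by 0.41.

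Mitochondrial translation factors (10 tested) had a median of -0.05, with Tufm, the partner of Tsfm, at -0.38 and Mtif2 at 0.25. The synthetases and Wdr4, the partner of Mettl1 (16 tested) had a median of -0.02, with Yars at -0.35 and Hars at 0.24. Dynactin and kinesin-1 subunits (8 tested) had a median of -0.02, with Dctn6 at -0.51 and Dctn5 at 0.21. The hedgehog genes (7 tested) had a median of -0.04, with Boc at -0.83 and Cdon at -0.75. Both were lowest in vector 2, Boc at 191 beside 305 to 499 and Cdon at 343 beside 564 to 661 in the other lines. Gas1, a brighter gene of the same list, had a difference of 0.67. It was at 8065 for vector 1, 14418 for vector 2, 15344 for MTf 4 and 6016 for MTf 6. The medians of the partner lists lay between -0.07 and 0.08. The median of -1.01 from Atp23 to Shmt2 belongs to genes chosen for low values in vector 2. A contrast of the lists with it is therefore fixed by the choice, and nothing is read from it.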

How the data were processed

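Total RNA of 4 LMTK- lines was measured on 1 Affymetrix Mouse Genome 430 2.0 array each. The deposited values are linear signal intensity values per probe set from the authors' GCOS 1.3 software (version per the submitters' processing notes), with scaling settings not given in the sources used here. They entered the fits as deposited, and control probe sets were left out. Signals were converted to log2(signal + 32). Probe sets whose mean log2 value was below the median of all 45037 (a signal of about 196) were not tested, which left 22519. Where several probe sets match a gene, the one of highest mean stands for it. MTf minus vector was fitted with limma 3.58.1 in R 4.3.3 (eBayes with trend, Benjamini-Hochberg adjustment, threshold 0.05). The fit was tested on simulated data. With 2 arrays per group the smallest exact permutation p is 0.333, and p-values reflect the spread of these arrays alone, which may be technical. Probe sets were matched to genes by the platform annotation, and gene order and promoters come from RefSeq (GRCm38.p6). The annotation paired 932 probe sets with several genes and left 9160 unnamed. The genes named are all 31 of the stretch, the 5 tested genes on each side and the 2 of each partner list that differed most in vector 2. Gas1 was added after a look at its values. Members and lists were chosen with earlier results of these data known. Alternatives covered the offset, filter, scaling, trend, choice of probe set, chromosome level and each array left out. Depth does not apply to arrays, and their number limits the precision. No paired analysis was possible, since no replicate numbers are shared between the groups.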

Additional observations from a re-analysis of the deposited data

How the results depend on the processing

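No gene's difference of vector 2 from the other lines that was at least 1.5-fold changed sign in any alternative run. Of 271 gene values under alternatives, 248 moved by less than the SD of the other 3 lines. Leaving out 1 of those 3 arrays cannot move a value of an unchanged probe set by that much. Such values were bound to count among the 248, so little is read from this count. Most of the 23 that moved came from the run relative to the chromosome 10 median. There 13 genes were at least 1.5-fold lower in vector 2, against 16 in the main run. The median over the genes was -0.60 without the filter, where 31 genes entered, and -0.60 relative to the chromosome 10 median. With 1 of the other arrays left out it lay between -0.92 and -0.86, and the genes lowest in vector 2 numbered 20 to 21. The genes at least 1.5-fold lower numbered 15 to 18 with 1 array left out. The median of MTf minus vector lay between 0.11 (without vector 2) and 0.90 (without vector 1). The number of probe sets called across the array was 0 without the filter, 0 with the stricter filter and 0 without the trend, against 1, and 2 to 25 with 1 array left out (2 without vector 1, 6 without vector 2, 25 without MTf 4 and 12 without MTf 6), where a group holds a single array that is assumed to vary like the others. In each of these fits 0 probe sets of the 31 genes were called. No paired analysis was possible because the groups share no replicate number. The number of arrays limits every value, and signals near 196 or below have little margin over the offset.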
